A study of Mus musculus with 32 samples.

Results

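MHC class II antigen presentation was followed through 10 genes, chosen by symbol from the 22337 genes of the series. The genes were the class II chains H2-Aa, H2-Ab1 and H2-Eb1, the invariant chain Cd74, and the peptide-loading genes H2-DMa and H2-DMb1. With them were the transactivator Ciita and the costimulatory molecules Cd86, Cd80 and Cd40. RNA-seq had been carried out on 32 samples, each from 1 male mouse at 6 months of age on the C57BL/6J background. They were hippocampus (HPC), meninges, and lymphatic endothelial cells sorted from the meninges (mLECs). HPC came from 4 mice of each group (WT, 5xFAD without treatment, 5xFAD with light), while meninges and mLECs each came from 4, 3 and 3 such mice. WT mice were littermates without the transgenes. 5xFAD mice express human transgenes with mutations of familial Alzheimer's disease under the regulatory sequence of Thy1, which is active mainly in neurons. Light-treated 5xFAD mice received near-infrared light through the scalp for 10 min per session, 3 times per week for 4 weeks, and the control mice were also anesthetized and shaved, under room light. The mLECs were sorted as live cells without CD45 and with CD31 and PDPN, from 1 meninges per sample.

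Class II molecules are pairs of an alpha and a beta chain that carry peptides from endocytosed proteins to CD4 T cells. The invariant chain, made from Cd74, holds the groove of new class II molecules shut and guides them to the endosome, where cathepsin S cuts it and H2-DM exchanges its last fragment for a peptide. Ciita switches these genes on together with factors bound to the X and Y boxes of their promoters, and CD80 and CD86 on the presenting cell give the second signal through CD28. In the healthy brain, class II is found mainly on macrophages and dendritic cells at the borders, and microglia can acquire it around amyloid plaques.

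The 3 class II chains, H2-DMa and H2-DMb1, 5 of the 10 genes, lie on chromosome 17 (GRCm38), with H2-Ab1 (ENSMUSG00000073421) at chr17:34257689-34269419, H2-Aa (ENSMUSG00000036594) at chr17:34282744-34287823 and H2-Eb1 (ENSMUSG00000060586) at chr17:34305867-34316674. Ciita (ENSMUSG00000022504), Cd86 (ENSMUSG00000022901) and Cd80 (ENSMUSG00000075122) lie on chromosome 16, and Cd40 (ENSMUSG00000017652) on chromosome 2. H2-DMa (ENSMUSG00000037649) overlaps Brd2 on the other strand, and since Smart-seq2 libraries keep no strand, reads from the overlap cannot be assigned to either gene. H2-Eb1 and H2-DMb1 (ENSMUSG00000079547) have the near copies H2-Eb2 and H2-DMb2. Expected counts of H2-DMb1 held fractions, such as 66.88 in HPC of WT replicate 1, so the counting may have split its reads. Those of H2-Eb1 were whole numbers in every library. The RefSeq table of promoters on GRCm38.p6 held 5 of the 10 genes, namely H2-Aa, H2-Eb1, H2-DMa, H2-DMb1 and Cd80. The promoters of H2-Aa, H2-Eb1 and H2-Ob, a gene of the same locus described with the loading genes, are shown because class II promoters are known for X and Y boxes; a match below is a description of letters, not of a bound site. Each is given from 120 to 21 bases before the start, at chr17:34287844-34287943 on the minus strand, chr17:34305747-34305846 on the plus strand and chr17:34238785-34238884 on the plus strand. Capitals mark matches to CCAAT, the core of the Y box, on either strand (ATTGG on the other), and to AGCAAC, a core of the X box, on either strand (GTTGCT on the other).
H2-Aa: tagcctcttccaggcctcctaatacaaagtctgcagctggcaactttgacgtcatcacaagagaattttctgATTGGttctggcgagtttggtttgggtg
H2-Eb1: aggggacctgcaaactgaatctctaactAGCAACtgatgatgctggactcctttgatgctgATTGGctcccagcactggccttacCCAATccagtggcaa
H2-Ob: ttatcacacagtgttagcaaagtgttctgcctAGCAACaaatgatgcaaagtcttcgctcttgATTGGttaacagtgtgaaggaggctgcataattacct

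In H2-Eb1, 27 bases separated AGCAAC from ATTGG, and in H2-Ob 25 bases did. The H2-Aa window held ATTGG and no exact AGCAAC. Among 32851 promoters in the table, 33.8% held CCAAT on either strand within 250 bases before the start, 12.2% held AGCAAC on either strand, and 4.31% held both. H2-DMb1 and a second promoter of H2-DMa held ATTGG without AGCAAC, and neither the first promoter of H2-DMa nor that of Cd80 held either motif. Among the members with a promoter in the table, H2-Eb1 alone held both motifs, and H2-Ob is not a member.

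Expected counts per sample summed to between 13952825 and 23856476 in HPC, between 6601143 and 14708202 in meninges and between 14231415 and 24207326 in mLECs, and in mLECs only 5998 to 9020 genes had a count above 0. The mLEC libraries differed widely within groups, with a biological coefficient of variation of 1.89, against 0.198 in HPC and 0.350 in meninges. The HPC of replicate 1 of the light-treated mice stood apart for Cd74, H2-Aa, H2-Ab1 and H2-Eb1, so results that rest on it are given with and without it. In WT replicates 2 and 4 of the mLECs, the summed FPKM of 7 lymphatic markers was low. It was 38.0 and 55.7 there, against 1156 to 9718 in the other 8 libraries. The higher sums came mainly from Ccl21a, which averaged 2686 ± 3242 in WT mLECs (SD, n = 4). Flt4, another of the 7 markers, was 27.5 ± 8.48 in the same WT mice (SD, n = 4).

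In HPC, Cd74, H2-Ab1, H2-DMb1 and Cd86 rose in untreated 5xFAD against WT mice, 4 of the 7 genes that could be tested. Levels are in FPKM, fragments scaled by gene length and library size. Cd74 (ENSMUSG00000024610) was 5.12, 6.07, 2.36 and 1.36 in the WT mice and 46.4, 31.3, 52.2 and 36.5 in the untreated 5xFAD mice. H2-Ab1, the beta chain of the I-A molecule, was 1.19, 1.96, 0.72 and 0.88 in WT and 15.2, 8.61, 16.9 and 9.07 in 5xFAD mice. H2-Aa, its alpha chain, was 1.72, 2.97, 0.47 and 1.16 in WT and 14.2, 7.45, 20.6 and 10.6 in 5xFAD mice. Every 5xFAD value was above every WT value for all 3 of these genes. H2-Eb1, the beta chain of I-E, was 1.97, 1.84, 1.39 and 0.84 in WT and 5.89, 4.25, 8.91 and 6.08 in 5xFAD mice, again without overlap.

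**Figure D1:**
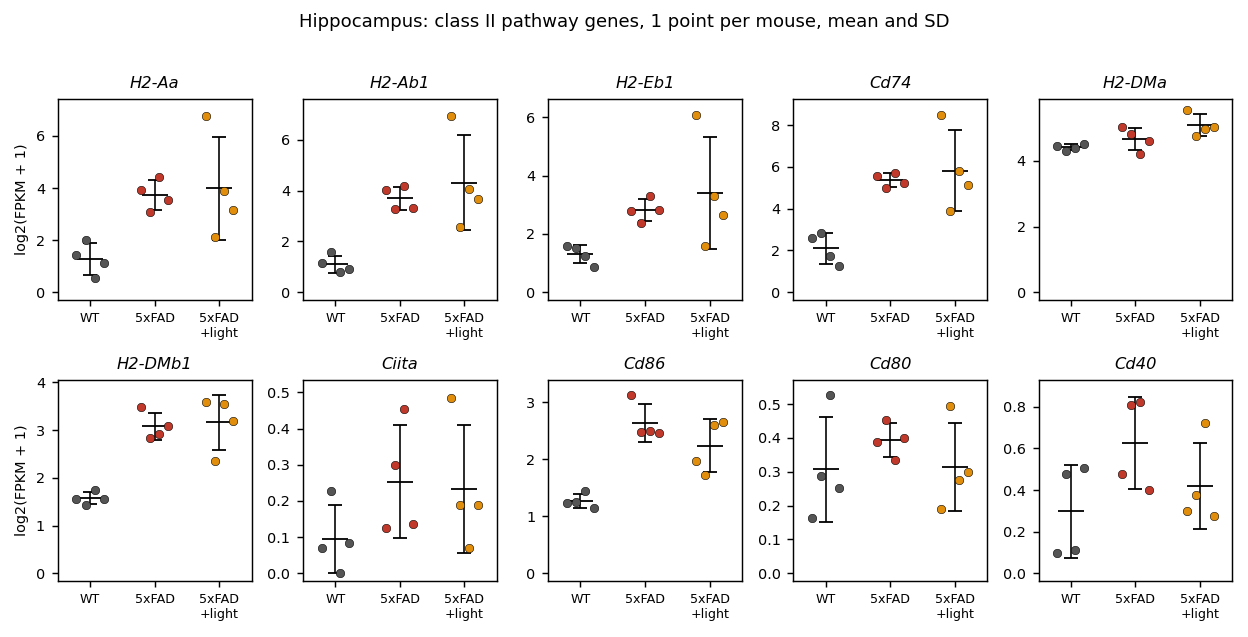
Level of each gene in hippocampus as log2(FPKM + 1), with 1 point per mouse and the mean and SD of each group (n = 4). Cd74, the 3 class II chains, H2-DMb1 and Cd86 lay higher in every 5xFAD mouse than in every WT mouse, and 1 light-treated mouse lay far above the others for Cd74 (FPKM 352) and the 3 chains.

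Among the genes that load and present, H2-DMb1, a chain of the peptide-exchange molecule H2-DM, was 1.96, 1.70, 2.37 and 1.95 in WT and 10.2, 6.14, 6.50 and 7.47 in 5xFAD mice. Its partner H2-DMa was 20.81, 18.55, 20.03 and 21.72 in WT and 31.7, 27.0, 17.6 and 23.1 in 5xFAD mice, so that these groups overlapped. Cd86, the ligand of CD28, was 1.36, 1.38, 1.71 and 1.21 in WT and 7.79, 4.55, 4.64 and 4.50 in 5xFAD mice, with no overlap. Ciita was at most 0.4 in any of the 12 HPC samples, Cd80 at most 0.44 and Cd40 at most 0.77, all short of the filter, which asked for 3 or more samples of the tissue with an FPKM of 1 or more. As log2(FPKM + 1), Ciita differed by 0.16 (exact permutation test, two-sided, p = 0.143), Cd80 by 0.09 (exact permutation p = 0.314) and Cd40 by 0.33 (exact permutation p = 0.171) between 5xFAD and WT mice, where the smallest p that 4 against 4 mice allow is 0.0286.

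edgeR's quasi-likelihood test, with Benjamini-Hochberg adjustment over 12981 genes, called 4 of the 7 tested members higher in 5xFAD than in WT mice at an adjusted p below 0.05, and 6.48% of all tested genes were called higher. Cd74 rose by a log2 fold change of 3.48 ± 0.85 (SE, adjusted p = 0.0209), H2-Ab1 by 3.40 ± 0.89 (SE, adjusted p = 0.0301), Cd86 by 1.94 ± 0.30 (SE, adjusted p = 0.000969) and H2-DMb1 by 1.93 ± 0.30 (SE, adjusted p = 0.001). H2-Aa had a log2 fold change of 3.10 (adjusted p = 0.0595), H2-Eb1 of 2.17 (adjusted p = 0.143) and H2-DMa of 0.25 (adjusted p = 0.454). The 5xFAD and WT values did not overlap for 6 of the 7 genes, which held in the higher direction for 8.75% of all tested genes. The median log2 fold change was 2.17 over the 7 members and 0.01 over all tested genes. The spread in this fit included light-treated replicate 1. Without that library 6 of the 7 were called, with H2-Aa at an adjusted p of 0.00315 and H2-Eb1 at 0.00548. Leaving out WT replicate 1, 3 or 4 ended the calls of Cd74 and H2-Ab1, with adjusted p between 0.0521 and 0.0957, and leaving out WT replicate 2, 5xFAD replicate 1 or 5xFAD replicate 3 ended that of H2-Ab1 alone. In bulk tissue, more cells of a type and more RNA per cell cannot be told apart.

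Other genes of the pathway in HPC were described by lists. Of 11 genes for peptide loading, 8 passed the filter and 7 rose in 5xFAD mice; the median over the 8 log2 fold changes was 1.38. Cathepsin S (Ctss), which cuts the invariant chain, rose from 111 ± 7.74 to 492 ± 160 (SD, n = 4), a log2 fold change of 2.17 (adjusted p = 9.83e-05). H2-Oa and H2-Ob, the chains of H2-DO, an inhibitor of H2-DM, rose by 2.33 (adjusted p = 0.00961) and 2.76 (adjusted p = 5.16e-05). H2-Oa was 1.18, 1.31, 0.92 and 0.47 in WT and 8.49, 4.47, 2.95 and 3.27 in 5xFAD mice, and H2-Ob was 0.38, 0.54, 0.35 and 0.39 in WT and 3.92, 1.91, 1.80 and 2.84 in 5xFAD mice. The remaining class II genes were near 0 in HPC: H2-Ea, the alpha chain of I-E that C57BL/6 mice do not make, was above 0 in 1 of 12 samples, H2-Eb2 reached 0.05, and H2-DMb2 ranged from 0.24 to 1.48.

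Of 10 transcription factors of class II genes, 9 were tested and 2 rose, among them Irf8, a factor of the myeloid lineage, by 2.53 (adjusted p = 0.000123). Spi1 was the other one. The RFX and NF-Y subunits, which bind the X and Y boxes, were not called. Of 8 interferon-gamma pathway genes, 6 were tested and 2 rose. Of 18 further costimulation genes, 8 were tested, of which 3 rose and 1 fell. Pdcd1, the inhibitory receptor PD-1, rose by 4.59 (adjusted p = 0.000265), from 0.105 ± 0.0755 to 2.34 ± 1.31 (SD, n = 4).

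Markers of microglia and of some other cells also rose in 5xFAD HPC. All 8 microglial markers, headed by Tmem119 and P2ry12, rose in 5xFAD mice, and their summed FPKM was 223 to 248 in WT, 518 to 718 in untreated and 429 to 631 in light-treated 5xFAD mice. Of 9 markers of plaque-associated microglia, headed by Cst7 and Clec7a, 8 rose, with summed FPKM of 140 to 176, 815 to 1542 and 563 to 1294 in the same order. Markers of border macrophages, headed by Mrc1 and Pf4, summed to 3.89 to 6.24 in WT, 8.16 to 19.4 in untreated and 3.63 to 7.35 in light-treated mice, with 1 of 3 tested genes called. Dendritic markers, headed by Flt3 and Zbtb46, summed to 4.00 to 4.70, 4.74 to 13.6 and 3.84 to 5.45, and B cell markers, headed by Cd79a, to 0.28 to 1.2, 1.54 to 1.82 and 1.34 to 2.22. Of 5 general leukocyte markers 4 rose, among them Ptprc by 2.40, with sums of 151 to 167, 228 to 355 and 245 to 316. Of 3 tested monocyte and neutrophil markers S100a8 rose, by 2.40 (edgeR, adjusted p = 0.0399), with sums of 0.92 to 1.68, 5.03 to 8.61 and 0.75 to 5.82. Of 5 astrocyte markers 4 rose, among them Gfap by 2.47, with sums of 562 to 638, 737 to 3087 and 1083 to 1479. Of 6 fibroblast markers 2 rose, Col1a1 and Col1a2, with sums of 21.3 to 43.4, 22.1 to 105 and 7.11 to 21.5. The part of any of these cells in the class II values was not tested.

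Light treatment was then compared with no treatment in 5xFAD HPC, with the same untreated mice as above. Cd74 was 352, 14.1, 54.3 and 33.8 in the light-treated mice, H2-Ab1 was 122, 4.86, 15.5 and 11.8, and H2-Aa was 108, 3.37, 13.9 and 8.01. H2-Eb1 was 65.9, 2.00, 8.95 and 5.21. For these 4 genes replicate 1 was 6.49 to 7.84 times the highest of the other 3 mice, while replicate 2 was the lowest of the light-treated and untreated 5xFAD mice. Cd86 was 2.93, 2.32, 5.09 and 5.29, H2-DMb1 was 11.1, 4.08, 10.6 and 8.13, and H2-DMa was 45.7, 26.0, 30.4 and 31.9. The light-treated values overlapped the untreated values for all 7 tested genes, where 3.66% of all tested genes were without overlap in the higher and 3.98% in the lower direction.

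By edgeR's quasi-likelihood test, 0 of the 7 members were called between light-treated and untreated 5xFAD mice, as were 0.455% of all tested genes, while 3 members had an unadjusted p below 0.05. DESeq2 and limma also called 0. Log2 fold changes were 1.45 for Cd74 (95% CI -0.15 to 3.06, adjusted p = 0.312), 1.62 for H2-Ab1, 1.33 for H2-Aa, 1.79 for H2-Eb1, 0.42 for H2-DMa, 0.16 for H2-DMb1 and -0.46 for Cd86 (95% CI -1.07 to 0.15, adjusted p = 0.401). Without replicate 1 the values of the first 4 of these turned to -0.27, -0.21, -0.63 and -0.17. Against WT mice, which are the same controls as before, 6 of the 7 members were higher in light-treated mice and 3.05% of all tested genes were called higher. Cd74 was higher by 4.94 (adjusted p = 0.00512), Cd86 by 1.48 (adjusted p = 0.0112) and H2-DMb1 by 2.09 (adjusted p = 0.000921), and H2-DMa differed by 0.67 (adjusted p = 0.0795). H2-Ab1 was higher by 5.01, H2-Aa by 4.43 and H2-Eb1 by 3.96. Without light-treated replicate 1 the same 6 genes were called, and the log2 fold change was 3.22 for Cd74, 3.19 for H2-Ab1, 2.48 for H2-Aa and 2.01 for H2-Eb1. Leaving out WT replicate 1, 3 or 4 ended the calls of H2-Aa and H2-Eb1 (adjusted p from 0.0689 to 0.0848), and leaving out WT replicate 2 ended that of H2-Eb1 (adjusted p = 0.0634). With the replicate number as a block, H2-Aa (adjusted p = 0.0703) and H2-Eb1 (adjusted p = 0.0624) were not called. By limma on log2(FPKM + 1), H2-Aa (adjusted p = 0.0699) and H2-Eb1 (adjusted p = 0.139) were also not called. The same held by limma on log2(FPKM + 0.1), with adjusted p of 0.0604 and 0.123. All 7 genes were without overlap in the higher direction, as were 7.33% of all tested genes.

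Replicate 1 of the light-treated HPC was examined gene by gene. Of 12981 tested genes, 15 were at least 5 times the highest of the other 3 light-treated mice, and 4 of these 15 were Cd74, H2-Aa, H2-Ab1 and H2-Eb1. Among the other 11 were the pituitary hormone genes Gh, Prl and Pomc. Gh was 112 in this library and 0.50 to 2.72 in the other light-treated mice, and it was also 66.6, 547 and 83.1 in untreated 5xFAD replicates 1 to 3, in which Cd74 did not exceed 52.2. In the same library Cd86 was 2.93 and Ptprc, the leukocyte antigen CD45, was 2.67, both within the range of the other light-treated mice. Its microglial markers summed to 429, the lowest of the light-treated mice, and its border macrophage markers to 3.63, the lowest of the 12 HPC samples. What raised the 4 class II genes in this library was not tested.

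**Figure D2:**
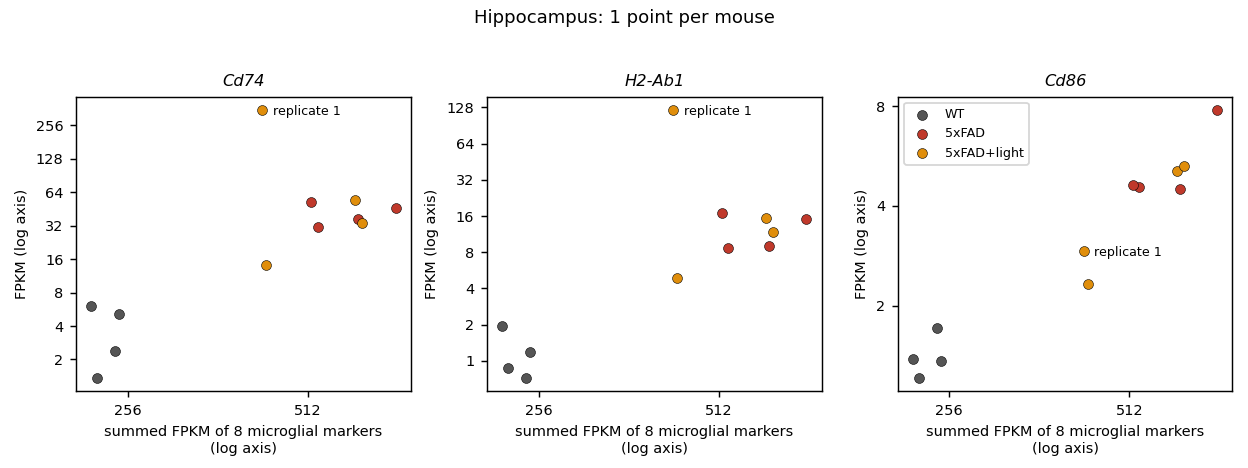
FPKM of Cd74, H2-Ab1 and Cd86 in hippocampus against the summed FPKM of 8 microglial markers, both on log axes, with 1 point per mouse. Light-treated replicate 1 sat far above the other mice for Cd74 (352) and H2-Ab1 (122) at a marker sum of 429, but not for Cd86 (2.93).

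Within HPC libraries, the genes kept different proportions. Cd74 was 1.55 to 4.30 times H2-Ab1 over the 12 samples, with a median of 3.09, and light-treated replicate 1 had a ratio of 2.89. H2-Aa was 0.653 to 1.52 times H2-Ab1. H2-DMb1 was 0.0898 to 0.369 times H2-DMa. As a description over 12 samples that share their groups, the genes other than members whose log2(FPKM + 1) was most like that of Cd74 were Tgtp2 (Pearson r = 0.95), H2-K1 (0.93), Il18bp (0.93), H2-Q7 (0.93) and H2-Oa (0.92). For Cd86 they were Npc2 (r = 0.99), Gngt2 (0.99), Aif1 (0.99), Cd9 (0.98) and Srgn (0.98). Tgtp2, H2-K1 and H2-Q7 are interferon-inducible GTPase and class I genes, and Aif1 encodes the microglial protein IBA1. The r between Cd74 and Cd86 was 0.71 over 12 samples and 0.93 over the 11 without replicate 1, and without it the genes most like Cd74 were Isg15, Anxa3, Lsp1, Lgals9 and Ehd4 (r from 0.97 to 0.98).

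The meninges samples held far more class II transcripts than the HPC samples. Choroid plexus markers, headed by Ttr and Folr1, summed to 15651 to 41788 in WT meninges and to 36.0 to 2790 in WT HPC. In 5xFAD HPC they summed to 205 to 3186 without treatment and to 62.2 to 243 with light. The part of choroid plexus in the member values was not tested. In WT mice Cd74 was 933, 1274, 540 and 1223 in meninges, H2-Aa was 533, 745, 363 and 662, and H2-Ab1 was 463, 676, 303 and 735. H2-Eb1 was 383, 619, 287 and 697, and H2-DMb1 was 58.9, 77.9, 32.6 and 86.9. In the joint fit of both tissues, 7 of 7 tested members were higher in WT meninges than in WT HPC, and 36.6% of all 12211 tested genes were higher. The log2 difference was 8.87 for H2-Ab1, 8.57 for H2-Aa, 8.51 for H2-Eb1 and 8.08 for Cd74, and it was 5.03 for H2-DMb1, 1.51 for Cd86 and 1.43 for H2-DMa (all adjusted p at most 0.000333, edgeR). Ciita was 1.12, 2.25, 2.60 and 1.16, Cd40 was 2.70, 3.31, 1.37 and 2.58, and Cd80 was 4.95, 1.83, 1.42 and 1.77, so that all 10 genes passed the filter in meninges.

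The order of levels in WT meninges, which FPKM allows because it is scaled by length, placed Cd74 first, then H2-Aa, H2-Ab1 and H2-Eb1, then H2-DMb1 and H2-DMa, and last Cd86, Cd80, Cd40 and Ciita, whose order is not settled because neighbours among these 4 differed by less than the larger of their SDs. The means of Cd80 (2.49 ± 1.65) and Cd40 (2.49 ± 0.812, SD, n = 4) were nearly equal, and Cd80 was raised by replicate 1 (4.95). The means of H2-Aa (576 ± 167), H2-Ab1 (544 ± 199) and H2-Eb1 (497 ± 193, SD, n = 4) differed by less than these SDs, as did those of H2-DMb1 (64.1 ± 24.01) and H2-DMa (58.2 ± 15.2). Cd74 was 1.54 to 2.01 times H2-Ab1 over the 10 meninges samples, and H2-DMb1 was 0.855 to 1.35 times H2-DMa, above every HPC sample. H2-Ea was at most 0.29 in meninges, H2-Eb2 at most 0.63 and H2-DMb2 between 2.39 and 12.03. H2-Oa was between 3.27 and 8.02 and H2-Ob between 1.12 and 4.09. The genes most like Cd74 over the 10 samples were Tapbp, which aids class I loading (Pearson r = 0.96), Cpxm1 (0.96), Spsb2 (0.94), Dmpk (0.94) and the class I gene H2-D1 (0.94), and those most like Cd86 were Ccdc117 (0.96), Cdkn2aip (0.95), Mks1 (0.91), Parp2 (0.91) and Ift52 (0.91).

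**Figure D3:**
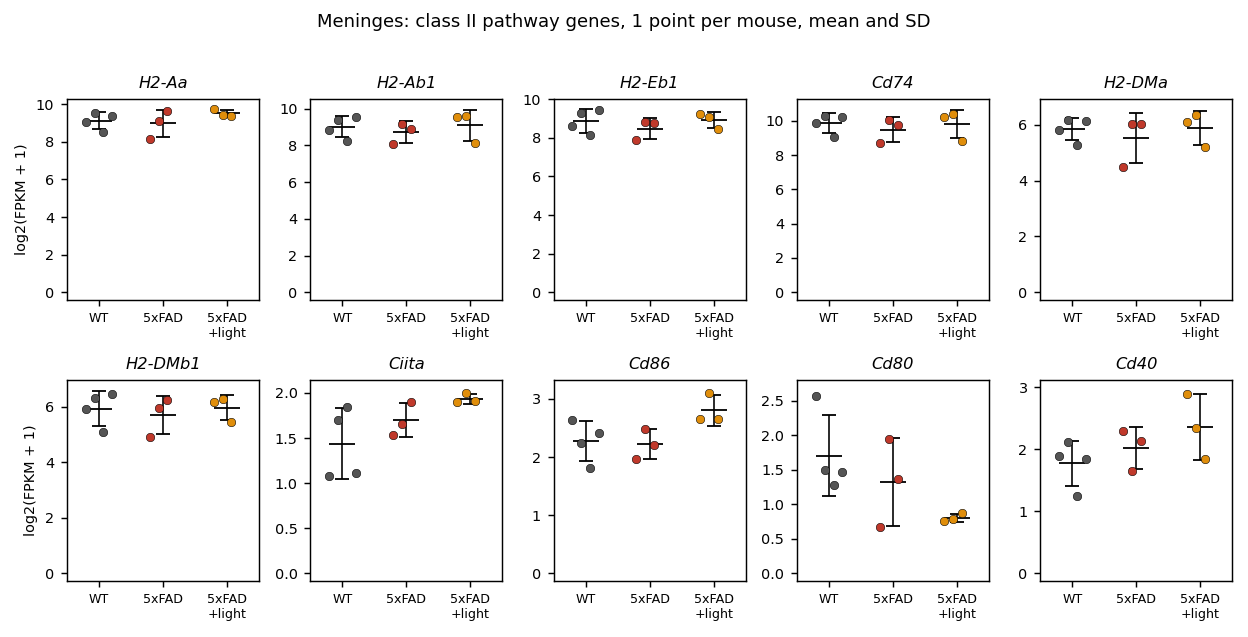
Level of each gene in meninges as log2(FPKM + 1), with 1 point per mouse and the mean and SD of each group (n = 4, 3 and 3). The groups overlapped for all 10 genes between 5xFAD and WT mice, and for Cd86 the light-treated mice lay above all 3 untreated 5xFAD mice.

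In meninges, 0 of 10 members were called between untreated 5xFAD and WT mice by edgeR's test, as were 0% of the 14318 tested genes, and 0 had an unadjusted p below 0.05; DESeq2 and limma also called 0 members. Cd74 was 413, 1054 and 861 in 5xFAD mice, within or below the WT range, with a log2 fold change of -0.37 (95% CI -1.27 to 0.54). H2-Ab1 was 268, 581 and 479, H2-Aa was 288, 554 and 796, and H2-Eb1 was 233, 446 and 432. Replicate 1 was the lowest of the 5xFAD mice for Cd74, the 3 chains, H2-DMa and H2-DMb1. The groups overlapped for all 10 genes, where 2.19% of all tested genes were without overlap in the higher and 2.65% in the lower direction. The intervals of the 10 log2 fold changes all included 0, with values from -0.46 for Cd80 to 0.29 for Ciita.

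Between light-treated and untreated 5xFAD meninges, 0 of 10 members were called, as were 0.014% of all tested genes, and 0 had an unadjusted p below 0.05; DESeq2 and limma also called 0 members. Cd74 was 1194, 1336 and 462 in light-treated mice, with a log2 fold change of 0.34 (95% CI -0.62 to 1.31). Cd86 was 5.27, 7.61 and 5.28 in light-treated mice, against 2.92, 4.62 and 3.64 without treatment, and its log2 fold change was 0.68 (95% CI -0.03 to 1.39, adjusted p = 0.408). Cd86 was the 1 member without overlap, in the higher direction as for 10.1% of all tested genes. Cd80 was 0.69, 0.73 and 0.83 in light-treated mice and 0.59, 2.85 and 1.57 in untreated mice, with a log2 fold change of -1.202 (adjusted p = 0.445). Against WT meninges 0 of 10 members were called and 0.014% of all genes were, 1 member (Cd80) had an unadjusted p below 0.05, and DESeq2 and limma called 0. Ciita and Cd86 were without overlap in the higher direction, as were 6.99% of all tested genes, and Cd80 in the lower direction, as were 5.34%. Markers of B cells, which express class II constitutively, summed to 17.3 to 32.8 in WT, 25.1 to 26.3 in untreated and 35.3 to 64.3 in light-treated mice, and leukocyte markers, headed by Ptprc and Itgam, to 110 to 155, 92.8 to 184 and 107 to 238. Border macrophage markers summed to 405 to 614, 391 to 469 and 370 to 690 in the same order. Dendritic markers summed to 17.6 to 30.3, 17.4 to 30.3 and 20.85 to 36.1. For both of these lists the groups overlapped. The part of any of these cells in the member values was not tested. In meninges 0 genes of the loading, transcription, interferon-gamma and costimulation lists were called in either comparison.

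The difference between tissues was tested directly in the joint fit. The 5xFAD effect was larger in HPC than in meninges for 2 of the 7 members, Cd86 by a log2 difference of 2.04 ± 0.43 (SE, adjusted p = 0.012) and H2-DMb1 by 2.17 ± 0.51 (SE, adjusted p = 0.0259), as it was for 2.01% of 12211 genes. The difference was 3.87 for Cd74 (adjusted p = 0.0516), 3.72 for H2-Ab1 (adjusted p = 0.0652), 3.20 for H2-Aa, 2.62 for H2-Eb1 and 0.47 for H2-DMa. Without light-treated HPC replicate 1, 6 of the 7 were called, with Cd74 at an adjusted p of 0.00388. Leaving out meninges 5xFAD replicate 1 left 0 called, and leaving out HPC WT replicate 1, 2 or 4, HPC 5xFAD replicate 1, or meninges WT replicate 2 or 4 left 1. Leaving out meninges WT replicate 3 gave 4. For the effect of light, 0 of the 7 members were called as differing between the tissues, with 1.74% of all genes called, 1 member (Cd86) at an unadjusted p below 0.05 and values from -1.12 for Cd86 to 1.38 for H2-Eb1, and limma also called 0.

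**Figure D4:**
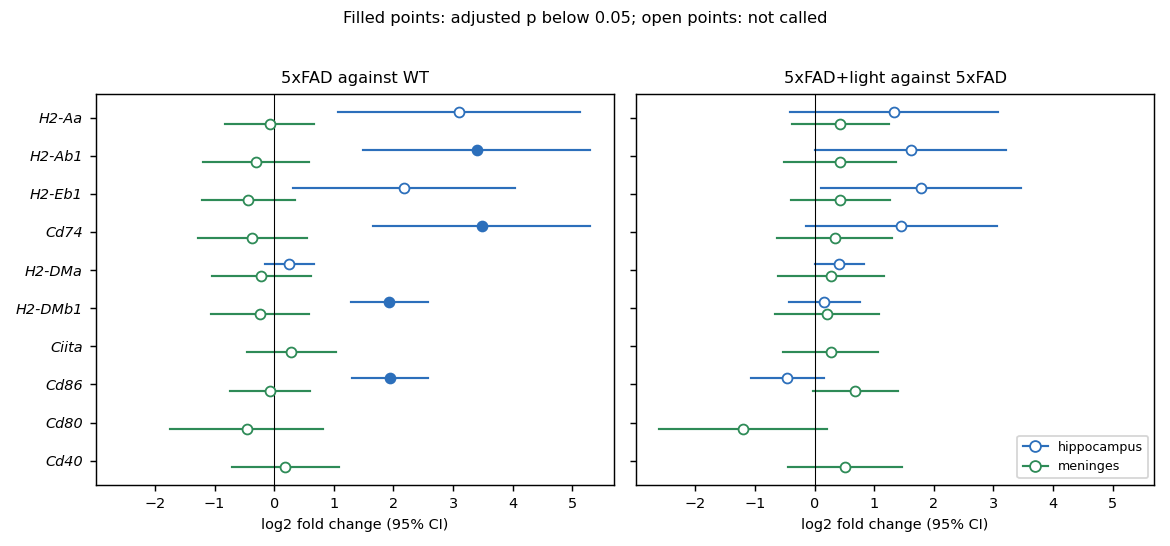
Log2 fold change of each gene with its 95% confidence interval in hippocampus and meninges, for 5xFAD against WT and for light-treated against untreated 5xFAD mice, with filled points where the adjusted p was below 0.05. The filled points were Cd74, H2-Ab1, H2-DMb1 and Cd86 in hippocampus of 5xFAD against WT mice, and Ciita, Cd80 and Cd40 were tested in meninges only.

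In sorted mLECs, Cd74 and H2-Ab1 were above 0 in all 10 libraries, Cd86 and Cd80 were at 0 in all 10, and the other 6 genes were above 0 in some libraries only. Cd74 was 0.16, 0.40, 1507 and 209 in WT, 199, 504 and 4.52 in untreated 5xFAD and 333, 228 and 381 in light-treated mice. H2-Ab1 was 92.5, 0.30, 591 and 25.4 in WT, 115, 254 and 105 in untreated and 305, 61.4 and 71.4 in light-treated mice. H2-Aa was 0.04, 0.07, 143 and 0 in WT, 40.6, 35.7 and 0 in untreated and 19.6, 32.0 and 0 in light-treated mice. In WT mice each of these genes ran from below 1 to above 100, and WT replicate 3 was the highest of the 10 libraries for all 3 genes. Cd74 was 0.00173 to 8.26 times H2-Ab1 over the 10 libraries, a far wider range than in either tissue.

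**Figure D5:**
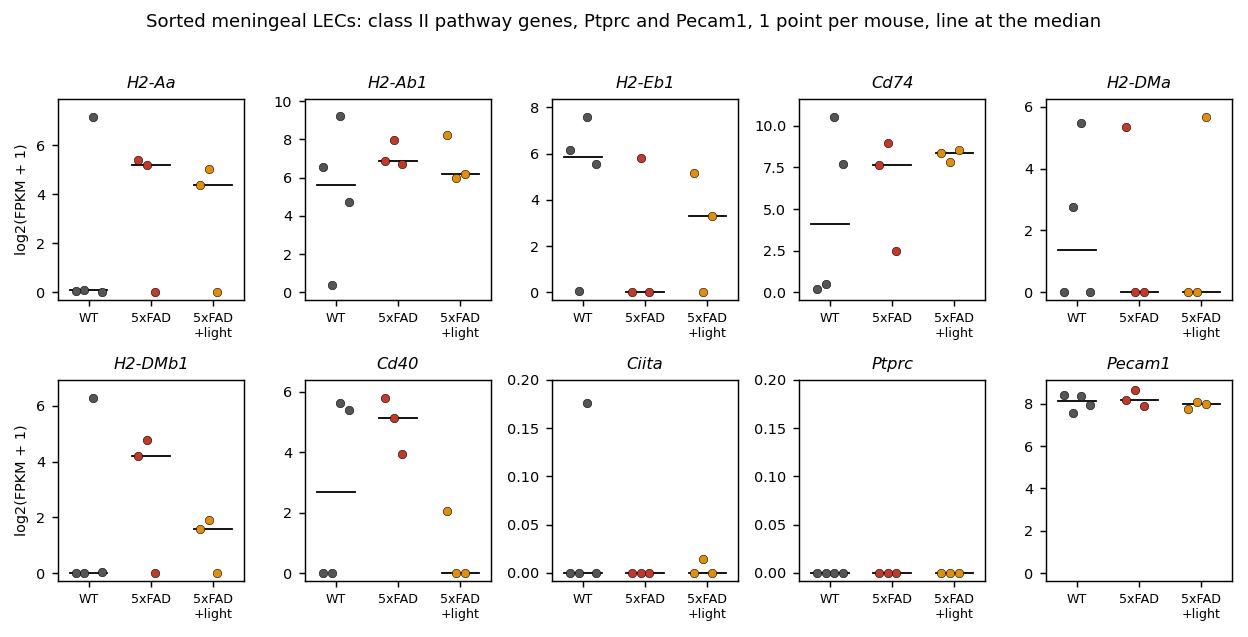
Level of 8 pathway genes, Ptprc and Pecam1 in sorted mLECs as log2(FPKM + 1), with 1 point per mouse and a line at the median of each group (n = 4, 3 and 3). Pecam1 lay between 189 and 398 in FPKM and Ptprc was 0 in every library, while Cd74 ran from 0.16 to 1507.

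H2-Eb1 was 70.3, 0.05, 193 and 45.9 in WT, 0, 55.7 and 0 in untreated and 34.6, 0 and 8.77 in light-treated mice. H2-DMa was at 0 in 6 of 10 libraries and H2-DMb1 at 0 in 4. Ciita was at 0 in 8 of 10, and the other values were 0.13 and 0.01. Cd86 and Cd80 had counts of 0 in all 10 libraries, which at these depths allows up to a CPM of 0.124 to 0.211 in a library (3 counts, counting error only). H2-Oa was at 0 in all 10, H2-Ob was above 0 in 1, and H2-Ea was at 0 in all 10. H2-Eb2 was at most 0.02 and H2-DMb2 at most 5.21.

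In mLECs 7 members passed the filter and 0 were called in any of the 3 comparisons by edgeR, where 0%, 0% and 0.0122% of the 8188 tested genes were called for 5xFAD against WT, light-treated against untreated and light-treated against WT mice. In each, 0 members had an unadjusted p below 0.05, and DESeq2 and limma called 0 members. Cd40, a receptor of the TNF family that T cells engage, was 0, 0, 48.8 and 41.0 in WT, 54.7, 34.3 and 14.5 in untreated and 3.18, 0 and 0 in light-treated mice. It was the 1 member without overlap between light-treated and untreated mice, in the lower direction as for 6.58% of all tested genes, with a log2 fold change of -4.70 (95% CI -12.5 to 3.11, edgeR). Leaving out 1 library moved this value between -12.6 and -4.02, the former without light-treated replicate 1, where the remaining light-treated libraries are both at 0 and the fitted value is no bound. Ptprc was at 0 in all 10 libraries and the 5 leukocyte markers summed to at most 0.02. Dendritic cell markers summed to 0 to 43.2, B cell markers to 0 to 16.5 and border macrophage markers to 9.67 to 124. Over the 10 libraries the median was 0 for 6 of 7 dendritic, 6 of 6 B cell and 6 of 7 border macrophage markers. Stab1, of the border macrophage list, averaged 40.2 in WT, 69.4 in untreated and 71.6 in light-treated mice. WT replicate 3, the highest for Cd74, had sums of 16.7, 0 and 29.8 for these 3 lists. Prox1, the defining lymphatic factor, was at 0 in 3 of the 10 libraries and Pdpn, used in the sort, at 0 in 4. The 6 blood endothelial markers, headed by Cldn5 and Pecam1, summed to 1070 to 3431 over the 10 libraries. The part of lymphatic, blood endothelial or other cells in the member values was not tested.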

How the data were processed

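Smart-seq2 libraries of 32 mouse samples were sequenced on an Illumina NovaSeq, and the authors deposited, per gene, expected counts, not normalized, and FPKM values, scaled by length and library size. The study's methods name fastp and RSEM, whereas the submitters' processing notes list Trimmomatic, HISAT2, StringTie and DESeq2 with build mm10; which made the files is not settled here. HPC and meninges share 1 table and mLECs have another, and they were not joined. The authors' own annotation columns were used only for symbols.

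After rounding, the counts entered edgeR 4.0.16 under R 4.3.3 (TMM, quasi-likelihood, 3 groups of a tissue in 1 fit; HPC and meninges jointly for differences between tissues). Genes were tested where 3 or more samples of the tissue had an FPKM of 1 or more, in each of both tissues for the joint fit, and an adjusted p below 0.05 (Benjamini-Hochberg, all tested genes) was called. Exact permutation tests (SciPy) on log2(FPKM + 1) served for single genes. Steps were tested on simulated data. All 10 members are described. Other pathway genes come from lists, with up to 5 called genes of largest change named per tissue, plus H2-Ea, H2-Eb2, H2-DMb2, H2-Oa and H2-Ob; some list genes are not reported here. Spi1, S100a8, Gfap, Col1a1, Col1a2, Batf3, Cd22, Gh, Prl and Pomc were chosen after their values were seen. Members and lists were chosen with earlier results of these data known. Alternatives were RLE scaling, no filter, a mean FPKM of at least 5, the replicate number as a block, only the 2 groups compared, a further 2-fold threshold, DESeq2 1.42.0, limma 3.58.1 on log2(FPKM + 1) and log2(FPKM + 0.1), and leaving out each replicate. Leaving out light-treated HPC replicate 1 from comparisons it is not part of was added after the data were seen.

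Replicates differed by more than counting error (chi-square per degree of freedom 9.25 to 1860). The study's methods give 1 mouse per sample, while the labels give only a replicate number. Within each tissue, same-numbered samples of different groups did not deviate together in all pairs (r from -0.3 to 0.24). Numbers were therefore not taken as pairs. Whether same-numbered samples of different tissues came from 1 mouse is not stated and was not checked. The joint fit took HPC and meninges samples as independent.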

Additional observations from a re-analysis of the deposited data

Results flagged for a closer look

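In groups of 4, a library far from the others was looked for in 48 sets of values of 1 gene in 1 group, and 12 were found. Chance gives about 1 in 20, but this rate does not hold where values are tied at or near 0. In WT mLECs, Ciita was 0, 0, 0.13 and 0, and H2-DMb1 was 0, 0, 77.1 and 0.04. The 12 sets are therefore a description, and their number is not set against chance. In light-treated HPC, replicate 1 was far above the others for Cd74 (352), H2-Ab1 (122), H2-Aa (108) and H2-Eb1 (65.9). In WT mLECs, replicate 3 was far above the others for Cd74 (1507), H2-Ab1 (591), H2-Aa (143), H2-DMb1 (77.1), H2-DMa (43.4) and Ciita (0.13). In untreated 5xFAD HPC, Cd86 was 7.79 in replicate 1, and in WT meninges, Cd80 was 4.95 in replicate 1. All are FPKM, and the genes of a library are not independent of each other.

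The 5xFAD effect differed between HPC and meninges, by the test of the difference itself, for Cd86 (log2 difference 2.04) and H2-DMb1 (2.17), the larger effect being in HPC.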

How the results depend on the processing

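Over the alternatives, 5xFAD HPC had 3 to 6 members called higher than WT (4 as reported), and 2 to 6 when a replicate was left out, the highest without light-treated replicate 1; Cd86 and H2-DMb1 were called in every fit that gave them a value. For light-treated against WT HPC, 4 to 7 members were called (6 as reported), 4 to 7 with a replicate left out. For the 5xFAD effect in HPC against meninges, 2 or 3 were called, and 0 to 6 with a replicate left out. For WT meninges against HPC, 7 were called in all fits but the 1 without a filter (10). In every other comparison 0 members were called under each alternative. With the replicate number as a block, 4 members were called in 5xFAD against WT HPC, 4 in light-treated against WT HPC and 3 in the comparison of tissues, Cd74 being added there (adjusted p = 0.035). The block turned the meningeal Cd40 value for 5xFAD against WT to -0.041 and the H2-Aa value for light between tissues to -0.073; limma turned the latter to -0.30. The causes were not tested. The numbers of all genes called moved more: 556 to 1721 for 5xFAD against WT HPC (1108 as reported), 0 to 641 for light-treated against untreated HPC (59), 238 to 1109 for light-treated against WT HPC (466), 0 to 79 and 0 to 438 for light-treated meninges against untreated and WT (2 and 2), 0 to 182, 0 to 341 and 0 to 458 for the mLEC comparisons in the order of the text (0, 0 and 1), 132 to 391 and 18 to 352 for the 2 differences between tissues (255 and 212), and 6853 to 12929 for WT meninges against HPC (8468).

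Log2 fold changes of members that changed sign when a replicate was left out, none of them called, had these ranges; single members were not followed in this way for light-treated against WT meninges, nor in mLECs except Cd40. In light-treated against untreated HPC they were -0.27 to 1.83 for Cd74, -0.63 to 1.71 for H2-Aa, -0.17 to 2.17 for H2-Eb1 and -0.21 to 1.99 for H2-Ab1. In 5xFAD against WT meninges they were -0.018 to 0.32 for Cd40, -0.26 to 0.077 for Cd86, -0.47 to 0.23 for H2-Aa, -0.45 to 0.15 for H2-DMa, -1.05 to 0.23 for Cd80 and -0.52 to 0.073 for H2-DMb1. In light-treated against untreated meninges they were -0.094 to 0.51 for H2-DMa and -0.11 to 0.49 for H2-DMb1. For light between tissues they were -0.59 to 1.52 for Cd74, -1.02 to 1.32 for H2-Aa, -0.10 to 0.54 for H2-DMa, -0.57 to 1.78 for H2-Eb1, -0.61 to 1.60 for H2-Ab1 and -0.33 to 0.31 for H2-DMb1. In mLECs the spread between libraries, with standard errors from 1.39 to 3.87, sets what can be seen.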
